A study of Rattus norvegicus with 6 samples.

Results

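Adrenergic receptors are the cell surface receptors for noradrenaline and adrenaline. The genes described here were Adra1a, Adra1b, Adra1d, Adra2a, Adra2b and Adrb1, chosen by gene symbol, and they made up 6 of the 14607 genes of the series. The material was vascular smooth muscle cells (VSMCs), which wrap the parenchymal arterioles and contain smooth muscle actin, and mid-capillary pericytes (mcPCs), the mural cells of the capillary bed, which lack it. Both were freshly sorted from the cerebral cortex of male Sprague-Dawley rats aged 4 to 5 weeks, with 3 samples of each cell type, each from the pooled cortices of several rats. VSMCs were taken from arteriole fragments that resisted mild digestion. Only these fragments were then dissociated with harsher enzymes. Their cells were depleted of those bearing the endothelial marker CD31 or the myeloid marker CD11b, and VSMCs were then captured with a lectin. The mcPCs were what was left of the digested tissue after cells bearing CD31, CD11b, the astrocyte transporter GLAST or the oligodendrocyte antigen O4 had been removed, so that no marker selected them. Both cell types came from 3 independent isolations, and the sample titles carry the same codes (DN, DL, DK) for both. Differences of handling and of cell type cannot be told apart here. All 6 poly(A) RNA libraries were sequenced, and the values available here were the authors' means of each cell type. No value per sample was used, no spread between samples could be computed and no test was run. A gene is described as lower or higher when the ratio of means reached 2-fold, and the intervals given are 95% exact counting intervals, which cover counting error only.

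The alpha-1 receptors (Adra1a, Adra1b, Adra1d) couple to Gq/11, which releases calcium from intracellular stores and contracts smooth muscle. The alpha-2 receptors (Adra2a, Adra2b) couple to Gi/o, which lowers cyclic AMP, and they act both on nerve terminals and on vascular muscle. The beta receptors (Adrb1, the beta-1 receptor) couple to Gs, which raises cyclic AMP and relaxes vascular muscle. In the cortex, noradrenaline reaches the vessels mainly from the fibres of the locus coeruleus.

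Adrenergic receptor genes were weakly expressed in both cell types. Levels were compared between genes in TPM, transcript abundances corrected for transcript length and library total. The 6 genes added up to 13.9 TPM in VSMCs and 5.27 in mcPCs, while the median gene of the table had 12.7 TPM in VSMCs and 3.59 in mcPCs. The leading gene of VSMCs was Adra1b, with a mean of 5.37 TPM (counting interval 5.10 to 5.65), higher than 34.9% of genes. Adra2a followed in VSMCs with 4.77 TPM (4.53 to 5.02), an interval that did not overlap that of Adra1b. Adra2b stood at 1.50 TPM (1.40 to 1.62) and Adrb1 at 1.26 TPM (1.08 to 1.46) in VSMCs, and these neighbours in the order overlapped. The lowest pair in VSMCs, which overlapped as well, was Adra1a with 0.554 TPM (0.462 to 0.660) and Adra1d with 0.478 TPM (0.407 to 0.557). These means rested on 1475 reads for Adra1b, 1513 for Adra2a, 708 for Adra2b, 171 for Adrb1, 126 for Adra1a and 163 for Adra1d, summed over the 3 VSMC samples. Adra2a thus had more reads than Adra1b, and their order in TPM turned on the transcript length used (2592 bases for Adra2a, 2286 for Adra1b).

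In mcPCs the order was different. Adra2a led with 2.51 TPM (2.39 to 2.64), higher than 41.4% of genes. Adra1d came next with 1.29 TPM (1.20 to 1.38), ahead of Adra1b with 0.704 TPM (0.632 to 0.781). Adra2b had 0.550 TPM (0.501 to 0.602) and Adra1a 0.163 TPM (0.125 to 0.207) in mcPCs. Adrb1 was close to the detection limit at 0.0501 TPM (0.0267 to 0.0856), with 13 reads over the 3 mcPC samples. No pair of neighbours in the mcPC order had overlapping counting intervals. Reads over the 3 mcPC samples came to 1487 for Adra2a, 765 for Adra1d, 355 for Adra1b, 460 for Adra2b and 65 for Adra1a.

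**Figure D1:**
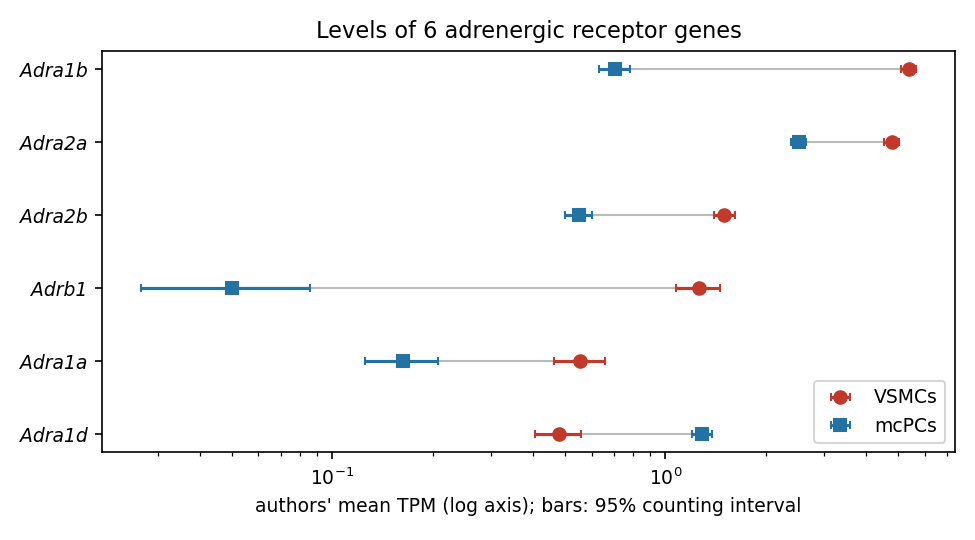
Mean TPM of 6 adrenergic receptor genes (log axis) in VSMCs (circles) and mcPCs (squares), with bars for the 95% counting interval. On this scale Adra1d is the gene with the higher value in mcPCs (1.29 against 0.478 TPM), and the other 5 are lower there, of which Adra2a and Adra2b change direction when normalized counts are compared.

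A comparison of TPM between the cell types depends on what else was in the libraries. Transcripts of a list of 19 erythrocyte genes took 54.9% of all TPM in mcPCs and 0.730% in VSMCs, and the log2 ratio of mean TPM, mcPC over VSMC, had a median of -1.72 over all genes. The ratio of the authors' mean normalized counts, with a median of 0.01 over all genes, was therefore used below for ratios between cell types. On that scale 2034 genes (13.9%) were 2-fold or more lower in mcPCs and 3210 genes (22.0%) 2-fold or more higher. On the TPM scale the split was 10564 lower and 1023 higher, and with counts scaled to the same total it was 4191 lower and 2246 higher.

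Of the 6 adrenergic receptor genes, 2 were 2-fold or more lower in mcPCs (Adra1b and Adrb1, against 13.9% of all genes), 1 was 2-fold or more higher (Adra1d, against 22.0% of all genes) and 3 lay in between. The median log2 ratio of the 6 genes was 0.16, near that of all genes.

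Adra1b, the alpha-1 subtype that led in VSMCs, had mean normalized counts of 355 in VSMCs and 165 in mcPCs. The log2 ratio was -1.11 (counting interval -1.28 to -0.94), or 2.16-fold lower in mcPCs (1.92 to 2.43), an interval that included 2-fold. Adra1a, an alpha-1 subtype known from peripheral arteries, had 29.5 normalized counts in VSMCs and 29.0 in mcPCs. Its log2 ratio of -0.03 (-0.48 to 0.42) left a difference in either direction within counting error, and its sign turned to positive (0.56) with TPM centred on their median. Adra1d had 37.9 normalized counts in VSMCs and 364 in mcPCs, a log2 ratio of 3.26 (3.02 to 3.52), or 9.60-fold higher in mcPCs (8.10 to 11.4). The ratio of Adra1d was past 2-fold on each of the 7 scales tried, TPM included. The ratio of Adra1b was below 0 on each of them, but fell short of 2-fold (-0.89) with TPM centred on their median.

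Within the alpha-1 class the composition thus differed between the preparations of the cell types. A share within a class does not depend on how the libraries are scaled to each other, but RNA of other cells in a preparation can change it. The part of such cells in these shares was not tested. Adra1d, at 0.478 TPM in VSMCs, was below the 0.8 TPM that the study used as a filter against transcripts of contaminating cells. Adra1b made up 83.9% of the alpha-1 TPM in VSMCs and 32.6% in mcPCs. Adra1d made up 7.46% in VSMCs and 59.8% in mcPCs, while Adra1a held 8.65% and 7.54%. In VSMCs there was 11.2 times as much Adra1b as Adra1d in TPM, and in mcPCs 1.83 times as much Adra1d as Adra1b. From the reads, the ratio of Adra1d to Adra1b was 19.5 times as high in mcPCs as in VSMCs (15.8 to 24.1). It was 20.6 from mean TPM and 20.7 from mean normalized counts. The ratio of Adra1d to Adra1a was 9.07 times as high in mcPCs (6.36 to 13.0), and that of Adra1a to Adra1b was 2.14 times as high (1.53 to 2.98). These intervals hold no variation between samples.

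**Figure D2:**
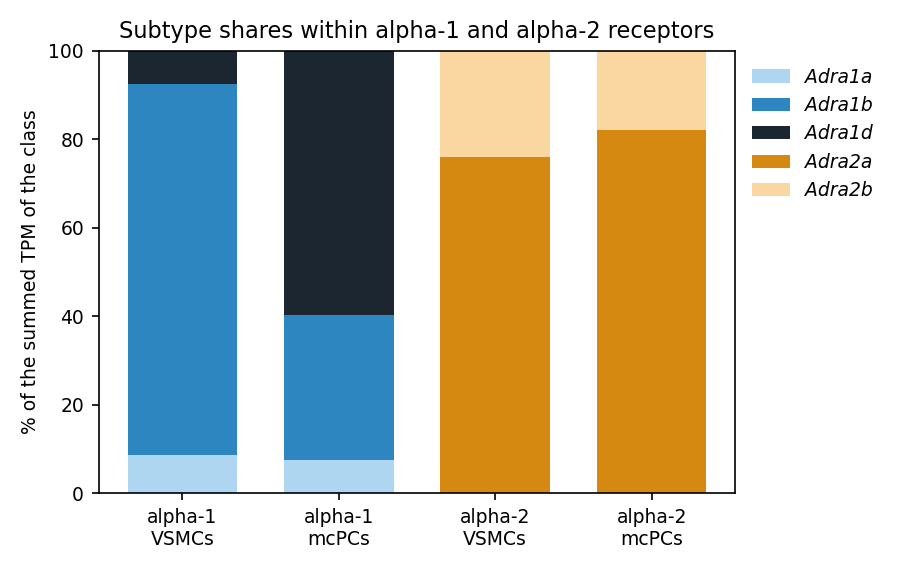
Share of each gene in the summed mean TPM of its class (vertical axis, %), for the alpha-1 and alpha-2 receptors in VSMCs and mcPCs. Adra1b takes 83.9% of the alpha-1 TPM in VSMCs and 32.6% in mcPCs, where Adra1d takes 59.8%, while Adra2a leads the alpha-2 class in both cell types. The part of other cells of the preparations in these shares was not tested.

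The promoters of the genes past 2-fold are shown so that genes lower in mcPCs (Adra1b, Adrb1) and the gene higher there (Adra1d) can be read side by side. RefSeq promoter windows, from 250 bases before to 50 bases after the gene start in GRCr8, a later build than the one used for counting, were at hand for 5 of the 6 genes, all but Adra1a. The windows are chr10:28814298-28814597 on the minus strand for Adra1b, chr3:139262282-139262581 on the minus strand for Adra1d and chr1:265776853-265777152 on the plus strand for Adrb1. They are written from 5′ to 3′, with each CpG dinucleotide in capitals.
Adra1b: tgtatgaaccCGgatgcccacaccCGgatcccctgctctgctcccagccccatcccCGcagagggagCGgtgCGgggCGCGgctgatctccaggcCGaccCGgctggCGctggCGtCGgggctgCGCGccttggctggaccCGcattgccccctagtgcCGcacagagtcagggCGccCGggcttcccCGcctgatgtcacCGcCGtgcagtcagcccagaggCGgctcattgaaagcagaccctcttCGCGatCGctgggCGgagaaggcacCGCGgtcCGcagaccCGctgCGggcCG
Adra1d: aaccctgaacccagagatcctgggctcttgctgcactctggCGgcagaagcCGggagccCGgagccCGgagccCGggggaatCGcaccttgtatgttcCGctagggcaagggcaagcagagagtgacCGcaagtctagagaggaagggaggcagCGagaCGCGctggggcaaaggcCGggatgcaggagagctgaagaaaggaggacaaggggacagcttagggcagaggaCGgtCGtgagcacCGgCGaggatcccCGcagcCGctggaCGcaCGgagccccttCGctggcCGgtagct
Adrb1: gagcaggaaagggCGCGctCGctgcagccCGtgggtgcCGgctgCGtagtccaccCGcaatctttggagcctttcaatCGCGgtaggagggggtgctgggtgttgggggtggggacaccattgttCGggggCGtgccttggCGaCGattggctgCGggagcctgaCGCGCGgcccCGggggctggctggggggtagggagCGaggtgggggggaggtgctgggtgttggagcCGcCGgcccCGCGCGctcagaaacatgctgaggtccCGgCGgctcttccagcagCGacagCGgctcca

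These windows were rich in CpG, with Adra1b and Adra1d at the upper and lower end of the 5. Adra1b had 32 CpG dinucleotides, Adrb1 and Adra2b had 28, Adra2a had 25 and Adra1d had 22. The median over 33469 rat promoters of 300 bases was 7. A link between the CpG count and the ratio of a gene was not tested. The GC content of the 5 windows ran from 65.7% for Adra1d to 72.0% for Adra1b, above that of 85.1% to 94.1% of all promoters. The motif TATAAA, searched like the others on both strands, was in none of the 5 windows and in 14.2% of all promoters. The GC box GGGCGG occurred 1 time in Adra1b and 2 times in Adra2b, and in 33.1% of all promoters. CCAAT occurred 1 time in Adrb1 (37.5% of all promoters), as did TGACG, the first part of the cyclic AMP response element (21.2% of all promoters). Neither the full element TGACGTCA, which contains TGACG, nor the CArG box of smooth muscle genes was in any of the 5 windows (1.83% and 1.64% of all promoters). The E box CANNTG occurred 1 time in Adra2a and in 72.1% of all promoters. These are matches of letters in a short window and locate no bound site. In Adra2a the bases after the gene start open with ATG, a translation start codon. Its window may therefore lie within transcribed sequence.

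The alpha-2 class was headed by Adra2a in both cell types. Adra2a, the subtype known as the main autoreceptor of noradrenergic neurons, had 357 mean normalized counts in VSMCs and 672 in mcPCs, a log2 ratio of 0.91 (0.81 to 1.01). It was thus 1.88-fold higher in mcPCs (1.75 to 2.02), short of 2-fold, though the interval included 2-fold as that of Adra1b did. On the TPM scale Adra2a was lower in mcPCs (log2 ratio -0.90). Adra2b, the subtype linked to direct vasoconstriction, had 167 and 213 normalized counts, a log2 ratio of 0.36 (0.18 to 0.53). It turned to lower in mcPCs on 3 scales, with a log2 ratio of -1.30 for TPM, -0.29 for TPM without the erythrocyte list and -0.25 for counts scaled to the same total. Adra2a took 76.0% of the alpha-2 TPM in VSMCs and 82.0% in mcPCs. The ratio of Adra2b to Adra2a was lower in mcPCs, at 0.661 times that of VSMCs (0.575 to 0.760) from the reads. The third alpha-2 gene, Adra2c, has no row in the table used here and was not analysed.

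Adrb1 stood furthest below VSMCs among the 6 genes. Mean normalized counts were 43.4 in VSMCs and 5.73 in mcPCs, a log2 ratio of -2.92 (-3.86 to -2.11), or 7.58-fold lower in mcPCs (4.32 to 14.5). Its ratio was below that of all but 3.07% of genes. Reads per sample averaged 57.0 in VSMCs and 4.33 in mcPCs, so that the size of the ratio was set by few reads. Adrb3 has no row in the table used here and was not analysed.

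**Figure D3:**
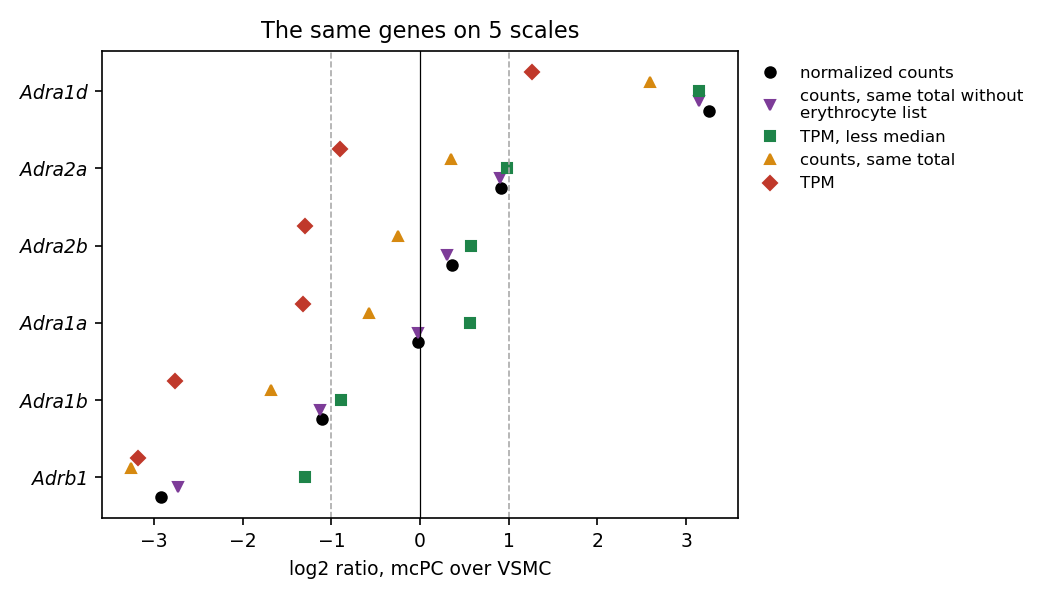
Log2 ratio, mcPC over VSMC, of 6 adrenergic receptor genes on 5 scales, with dashed lines at 2-fold. Adra1d lies right of the upper line and Adrb1 left of the lower line on all 5, Adra1b lies left of 0 on all 5, and Adra1a, Adra2a and Adra2b lie on both sides of 0.

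The ratio to be read against depends on the level of a gene in VSMCs. Part of this dependence is built in, since VSMCs are the denominator of the ratio and every gene kept had reads in each sample. Bins by the level in mcPCs were not made. Of the 2389 genes under 0.8 TPM in VSMCs, 1609 (67.4%) were 2-fold or more higher in mcPCs. The study used this level as a filter against transcripts of contaminating cells and left weaker genes out of its final dataset. Adra1a (0.554 TPM) and Adra1d (0.478 TPM) were below it. Among the 733 genes from 0.4 to 0.8 TPM, which hold Adra1a and Adra1d, the median log2 ratio was 1.10 and the 90th percentile 3.92. Adra1d, at 3.26, lay between these values, and Adra1a, at -0.03, lay below the median. For the 803 genes from 0.8 to 1.6 TPM, which hold Adra2b and Adrb1, the 10th percentile was -1.03, and Adrb1, at -2.92, lay beyond it. For the 1313 genes from 3.2 to 6.4 TPM, which hold Adra1b and Adra2a, the 10th percentile was -1.07, slightly above the -1.11 of Adra1b, and the median was 0.19, below the 0.91 of Adra2a. Of the 12218 genes at 0.8 TPM or more in VSMCs, 1929 (15.8%) were 2-fold or more lower in mcPCs, Adra1b and Adrb1 among them.

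**Figure D4:**
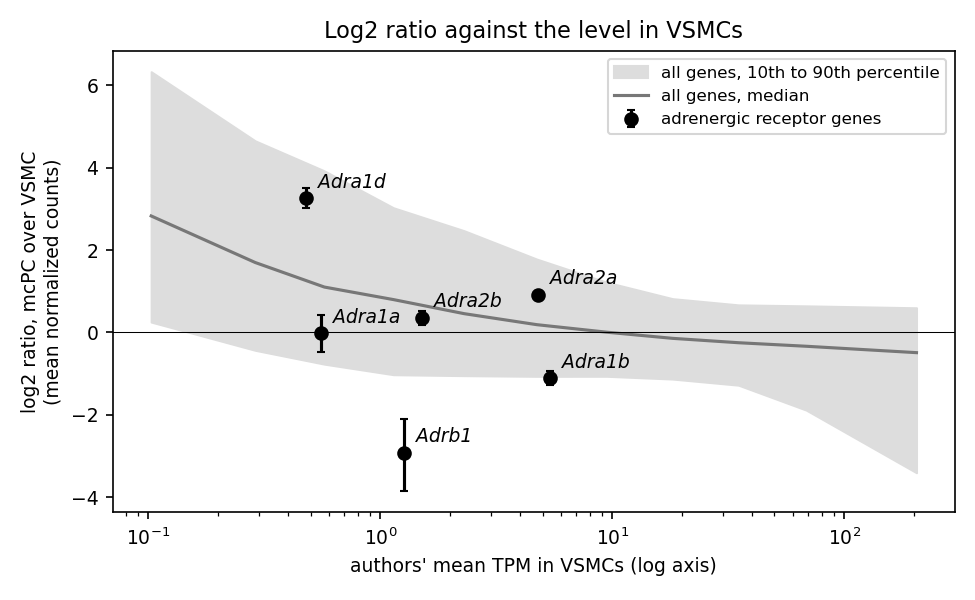
Log2 ratio of mean normalized counts, mcPC over VSMC, against mean TPM in VSMCs (log axis), for all genes (line for the median, band from the 10th to the 90th percentile within level bins) and for 6 adrenergic receptor genes (points with 95% counting intervals). Adra1d at 3.26 is inside the band of genes of its level, and Adrb1 at -2.92 is below it.

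Markers of other cells moved between the preparations too, with higher and lower again judged by normalized counts and summed levels given in TPM. Smooth muscle markers were lower in mcPCs for 10 of 10 genes, with a median log2 ratio of -7.65, and Tagln, an actin-binding protein of smooth muscle, had 19824 TPM in VSMCs and 22.7 in mcPCs. Among 12 pericyte and mural markers, 7 were higher and 2 lower in mcPCs, with a median log2 ratio of 1.95 and a range from -1.31 to 7.33. The most abundant of them, Rgs5, had 6298 and 1703 TPM and a log2 ratio of normalized counts of -0.06. All 19 erythrocyte markers with a row were higher in mcPCs. Of 13 endothelial markers with a row out of 15, 8 were higher in mcPCs and none lower, with a median log2 ratio of 4.01. The summed level of the 13 was 653 TPM in VSMCs and 253 in mcPCs, mostly from Esam, which had 487 and 184 TPM, while the median marker had 0.643 and 2.73 TPM. Of 15 microglia and leukocyte markers, 8 had a row and all 8 were higher, with a sum of 1.70 TPM in VSMCs and 35.9 in mcPCs, and Ptprc, the pan-leukocyte marker CD45, had 0.0659 and 15.1 TPM. Of 12 neuron markers, 8 had a row and 6 were higher and 1 lower, with a median log2 ratio of 4.52 and sums of 57.4 and 37.1 TPM. Without the most abundant of them in VSMCs the neuron sums were 13.3 and 28.2 TPM, and Tubb3, a tubulin of neurons, had 0.131 and 15.7 TPM. Astrocyte markers had 6 rows out of 10, 5 of them higher, with sums of 14.0 and 19.2 TPM, of which the 1 marker that was lower took most in VSMCs. Without it the astrocyte sums were 1.04 and 18.1 TPM, and Slc1a3, the gene of the depleted GLAST, had 0.306 and 12.7 TPM. The oligodendrocyte markers had 7 rows out of 10, 6 of them higher, with sums of 7.32 and 9.38 TPM. Fibroblast markers had 6 rows out of 7, 4 of them higher and none lower, with a median log2 ratio of 1.58. Their sums were 439 and 112 TPM, of which Col3a1 took 300 and 56.5, and 139 and 55.7 TPM without it. These sums are in TPM, for which the log2 ratio had a median of -1.72 over all genes. Many of these markers were weak in VSMCs, with median levels of 0.165 TPM for microglia and leukocyte markers and 0.215 TPM for astrocyte markers. The median was 0.501 TPM for oligodendrocyte and 0.738 TPM for neuron markers. Of all genes under 0.2 TPM in VSMCs, 80.2% were 2-fold or more higher in mcPCs. The share was 63.9% from 0.2 to 0.4 TPM and 52.4% from 0.4 to 0.8 TPM. Every gene with a row had reads in each sample, and markers such as Pecam1, Rbfox3 and Itgam have no row and were not analysed. The part of these cells in the levels of Adra1d and Adra2a in mcPCs was not tested. In such bulk samples, fewer cells of a type and less RNA per cell cannot be told apart.

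Of 25 Gq/11 and contraction genes with a row, 12 were 2-fold or more lower in mcPCs and 4 higher, with a median log2 ratio of -0.96. These genes, through which alpha-1 receptors act, were at 68.6 TPM in VSMCs by their median, and of all genes from 51.2 to 102.4 TPM there, 22.8% were 2-fold or more lower and 4.61% higher. Myosin light chain kinase, Mylk, had 815 TPM in VSMCs and 19.4 in mcPCs (log2 ratio of normalized counts -3.57). The myosin phosphatase inhibitor Ppp1r14a had 708 and 96.8 TPM (-1.05), and the GTPase Rhoa 595 and 148 TPM (-0.19). The ends of the list were the myosin phosphatase subunit Ppp1r12b (-5.50) and the inositol trisphosphate receptor Itpr3 (3.30). Adra1b thus lay close to the median of its own pathway list, and Adra1d close to its upper end.

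Of 7 Gi/o genes of the alpha-2 receptors with a row, 1 was lower, 2 were higher and 4 lay within 2-fold, as did 64.1% of all genes, and the median was -0.08. The G protein subunit Gnai2 had 602 TPM in VSMCs and 143 in mcPCs (log2 ratio of normalized counts -0.27), and Gnai3 had 74.5 and 20.0 TPM (-0.08). Gnai1 was the lowest, with 82.9 and 7.34 TPM (-1.69), and the potassium channel subunit Kcnj9 the highest (2.84).

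The Gs and cyclic AMP list of the beta receptors had 25 of 26 genes in 26 rows, since Gnas has 2, of which 9 rows were lower and 5 higher, with a median of -0.46. The median level of these rows in VSMCs was 46.8 TPM. Of all genes from 25.6 to 51.2 TPM there, 14.4% were 2-fold or more lower and 5.68% higher. The regulatory subunit of protein kinase A, Prkar1a, had 1005 TPM in VSMCs and 90.8 in mcPCs (log2 ratio of normalized counts -1.65). The more abundant row of Gnas, the Gs subunit itself, had 860 and 257 TPM (0.10), and the phosphodiesterase Pde3a had 455 and 5.72 TPM (-4.50). The adenylyl cyclases lay at both ends, with Adcy3 at -5.57 (279 and 1.71 TPM) and Adcy7 at 6.11 (0.150 and 3.08 TPM).

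Of 12 receptor kinases, arrestins and regulators of G protein signalling, which end receptor signalling, 9 lay within 2-fold (64.1% of all genes did), 1 was lower (Arrb1, log2 ratio -1.22) and 2 were higher, with Rgs3 the highest (3.41). Besides Rgs5, the most abundant were Rgs4 with 447 TPM in VSMCs and 171 in mcPCs (0.44) and Rgs2 with 140 and 40.7 TPM (-0.01). Among 11 scaffold proteins that bind these receptors, 5 were lower and 2 higher, with a median of -0.34. The highest ratio was that of Magi2 (2.60). The median level of the scaffolds in VSMCs was 42.1 TPM. Of all genes from 25.6 to 51.2 TPM there, 14.4% were 2-fold or more lower and 5.68% higher. The most abundant were Akap12 with 190 TPM in VSMCs (-2.03), Slc9a3r2 with 112 TPM (-0.34) and Sntb1 with 69.8 TPM (-1.01).

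Genes that make, take up or degrade catecholamines had 7 rows out of 14, and none of these was lower in mcPCs while 5 were higher, with a median of 1.85. Their median level in VSMCs was 0.110 TPM, and 80.2% of all genes under 0.2 TPM there were 2-fold or more higher, so the count is near that of weak genes at large. The degrading enzyme Maoa had 25.7 TPM in VSMCs and 5.77 in mcPCs (log2 ratio of normalized counts -0.34). The vesicular transporter Slc18a2 had 1.24 and 0.839 TPM (1.26), and the monoamine transporter Slc29a4 had 0.0754 and 0.905 TPM (5.41). Th, Dbh and Pnmt, which encode enzymes of catecholamine synthesis, have no row and were not analysed.

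The receptors most like the adrenergic ones were also split. Of 27 receptors for other amines and acetylcholine, 7 had a row, of which 3 were lower and 2 higher in mcPCs, with a median of -0.23. The median level of the 7 in VSMCs was 0.319 TPM. Of all genes from 0.2 to 0.4 TPM there, 5.25% were 2-fold or more lower and 63.9% higher. The histamine receptor Hrh2 had 27.7 TPM in VSMCs and 0.231 in mcPCs (log2 ratio of normalized counts -5.09), the dopamine receptor Drd1 5.12 and 0.0698 TPM (-4.42), the serotonin receptor Htr1b 2.21 and 0.0519 TPM (-3.69), and the serotonin receptor Htr7 was the highest (2.29). Of 19 peptide and lipid receptors with a row out of 32, 8 were lower and 7 higher, with a median of -0.22. Their levels in VSMCs were above those of any adrenergic receptor for Npy1r (346 TPM, log2 ratio -4.42), Ednra (146 TPM, -0.22) and Avpr1a (112 TPM, -4.08), the receptors of neuropeptide Y, endothelin and vasopressin. The list ran from Crhr2 (-4.49) to Adcyap1r1 (4.09). Its median level in VSMCs was 6.67 TPM. Of all genes from 6.4 to 12.8 TPM there, 11.1% were 2-fold or more lower and 12.5% higher.

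These counts changed with the scale, as did those of all genes. Over all 14607 genes, 10564 were 2-fold or more lower in mcPCs by TPM and 1023 higher. On the TPM scale 21 of 25 Gq/11 and contraction genes were 2-fold or more lower in mcPCs and 2 higher, and the catecholamine list had 2 lower and 2 higher. The Gi/o list had 5 lower and 0 higher on that scale, the Gs and cyclic AMP list 21 lower and 2 higher, the kinases, arrestins and regulators 9 lower and 1 higher, and the scaffolds 9 lower and 0 higher. The other amine receptors had 4 lower and 0 higher on that scale, and the peptide and lipid receptors 10 lower and 1 higher. With TPM centred on their median, the median log2 ratio stayed negative for the Gq/11 and contraction list (-0.84) and positive for the catecholamine list (1.91), but turned positive for the other amine receptors (0.71) and the peptide and lipid receptors (0.33).

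**Figure D5:**
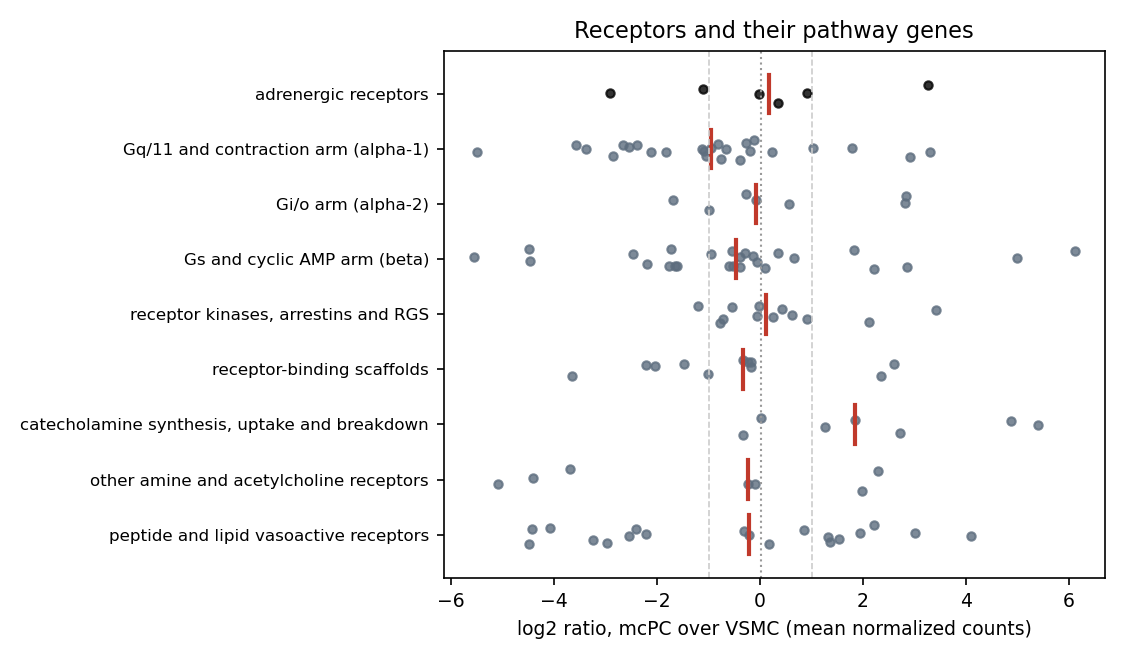
Log2 ratio of mean normalized counts, mcPC over VSMC, of 6 adrenergic receptor genes and of the genes of 8 lists (points, spread vertically for clarity), with the median of each list (bar), the median of all genes (dotted line) and 2-fold (dashed lines). The adrenergic receptors run from -2.92 to 3.26 around a median of 0.16, while the Gq/11 and contraction list has a median of -0.96. On the TPM scale the median of all genes lies at -1.72, and genes near 0 here turn negative.

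Across both cell types, the genes with the pattern most like that of Adra1b, by Euclidean distance of log2(mean normalized count + 1), were Anln (distance 0.03), Rnf138 (0.06) and Pnldc1 (0.07). A distance over 2 values separates genes poorly, and 34 genes lay within 0.25 of Adra1b.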

How the data were processed

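RNA-Seq of 3 VSMC and 3 mcPC samples was quantified by the authors with Salmon 0.8.0 on Rnor_6.0 transcripts, summed per gene, and kept for genes with reads in each sample. The deposited TPM, estimated counts, normalized counts (a signal scaled with DESeq2) and effective lengths are the authors' means of each cell type. The estimated counts deposited by the authors were read here as means over 12 sequencing runs (4 per sample), an inference from the values on which all read totals and intervals rest. Reads were taken as 12 times the mean, and came out whole (within 0.01) for all 6 genes in both cell types and for 69.8% and 71.5% of all genes in VSMCs and mcPCs. Depth was 61978061 reads per VSMC sample and 47990230 per mcPC sample on average. The authors' own fold changes, errors and p-values, also in the table, were not used. Computed here were the log2 ratio of mean normalized counts, with exact binomial intervals on reads (scipy 1.17.1), exact Poisson intervals for levels, and conditional odds ratios for pairs of genes. Only the binomial intervals were tried on simulated data, for genes with at least 100 reads in each cell type. In mcPCs, Adra1a (65 reads) and Adrb1 (13 reads) had fewer. Intervals hold no spread between samples. Named were all 6 receptors, from each pathway list the 3 genes with the highest mean TPM in VSMCs and, with at least 100 reads over the 6 samples, the lowest and highest ratio, the most abundant genes of marker lists, and the 3 genes nearest to Adra1b. A few genes that the rule would name are not reported here. A few others, such as those with no row, were named after their values were seen. Members and lists were chosen with earlier results of these data known.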

Additional observations from a re-analysis of the deposited data

How the results depend on the processing

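Leaving out a sample was not run, since a mean of a cell type cannot be split. No paired analysis was possible because the table holds a mean of each cell type and the columns carry no isolation. Depth limits Adrb1 most, with 13 reads in mcPCs. Adra1d stayed 2-fold or more higher and Adrb1 2-fold or more lower in mcPCs on each of the 7 scales compared. With log2 ratios of mean TPM (0.1 added), the values were -1.32 for Adra1a, -2.77 for Adra1b, 1.27 for Adra1d, -0.90 for Adra2a and -1.30 for Adra2b, with 4 genes lower and a median of -1.31. With the TPM ratios less their median over genes of at least 0.8 TPM in VSMCs, they were 0.56 for Adra1a, -0.89 for Adra1b, 0.57 for Adra2b and -1.30 for Adrb1, with 1 gene lower and a median of 0.57. With counts scaled to the same total, they were -0.58 for Adra1a, -1.68 for Adra1b, 2.59 for Adra1d, 0.34 for Adra2a and -0.25 for Adra2b, with a median of -0.42. With TPM rescaled after leaving out the erythrocyte list, a scale chosen after seeing the data, they were -0.51 for Adra1a, -1.73 for Adra1b, 2.35 for Adra1d, 0.21 for Adra2a and -0.29 for Adra2b, with a median of -0.40. At 4-fold, and with the whole counting interval past 2-fold, 1 gene was lower. Among genes of at least 0.8 TPM in VSMCs, the study's own filter, 0 were higher, since Adra1d had less, and the median was -0.38. The other 35 values, such as those with counts scaled without the erythrocyte list or with 1 added to each normalized count, moved by less than counting error, or for counts by less than 1.5 times and for medians by less than 0.1. Apart from the filters, whose fewer genes account for the change, the cause was not tested.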

Other observations

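With the erythrocyte list left out of the TPM of both cell types, a scale chosen after seeing the data, Adra2a had 4.81 TPM in VSMCs and 5.57 in mcPCs. On the same scale Adra1d had 0.481 and 2.86 TPM, Adra1b 5.41 and 1.56 TPM, Adra2b 1.52 and 1.22 TPM, Adra1a 0.558 and 0.361 TPM, and Adrb1 1.27 and 0.111 TPM. The receptor gene with the highest level was then Adra1b in VSMCs and Adra2a in mcPCs, as with the TPM as deposited, while the direction of Adra2a between the cell types was the opposite.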
